A study of Homo sapiens with 19 samples.

Results

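Of the 120 ribosomal RNA nucleotides listed in a RiboMethSeq experiment on Kasumi-1 cells, 13 carried no established guide RNA and are described here. They were taken by their deposited annotation, which marks the guide as unknown for 6 of them and as a prediction for the other 7. The annotation alone decides membership, and the other 107 listed sites, whose annotation names a guide without that mark, served as the comparison. The 18S rRNA holds 7 of the 13, namely 18S-186 (predicted guide ZL50), 18S-936 (unknown), 18S-1410 (unknown), 18S-1441 (SCARNA1), 18S-1606 (SNORD73A or SNORD73B), 18S-1680 (SNORD82) and 18S-1705 (SNORD43). The 28S rRNA holds the other 6, namely 28S-1029, 28S-1339, 28S-2527 and 28S-2739 (all unknown), 28S-1731 (SNORA52) and 28S-4937 (SNORA43, SNORA17 or SNORA50B). Numbers are positions in the mature rRNA as the deposited annotation gives them.

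Methyl groups are placed on the 2′-hydroxyl of rRNA riboses by fibrillarin (FBL), the catalytic subunit of box C/D small nucleolar ribonucleoproteins. The box C/D snoRNA, whose symbols begin with SNORD, base-pairs with the rRNA and so selects the nucleotide. Box H/ACA RNAs, whose symbols begin with SNORA, guide pseudouridylation by dyskerin instead, and SCARNA symbols name guide RNAs of the Cajal body. A true FBL target is therefore a nucleotide whose methylation depends on FBL and on a matching box C/D guide. Among the 7 predictions, 3 name SNORD genes, 3 name SNORA or SCARNA genes, and ZL50 is a name with no RefSeq symbol match in the table used. The 2 genes written SNORA43 and SNORA17 correspond to SNORA17B and SNORA17A in RefSeq.

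Kasumi-1 is a line of human acute myeloid leukaemia cells, here grown with 20% serum. The 14 knockdown libraries form 7 groups of 2, all given doxycycline at 100 ng/ml. These are control knockdown and FBL knockdown without a vector, both again with an empty re-expression vector, and FBL knockdown with wild-type FBL, with the FBLTri mutant or with the FBLQua mutant. For the other 5 libraries no doxycycline is recorded. They are 1 each of a SNORD127 control knockout clone, the SNORD127 knockout clones C1 and C34, C1 with empty vector and C1 with SNORD127. Each clone is a single clone. The column names hold shFBL1 and shFBL2 for the FBL knockdown without a vector and shFBL4 for all FBL knockdowns with one. They also hold Dual for the group titled FBLTri, Tri for the group titled FBLQua and KOC3 for the control clone, and the titles were followed. Whether the 2 replicates of a group came from separate cultures is not given in the labels. The p-values therefore speak only of the spread among these libraries, and that spread may be technical.

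Score C is 1 minus the number of fragment ends at a site divided by the weighted mean of the ends at 6 positions on either side, and is set to 0 where negative. A ribose methyl group blocks alkaline cleavage, so a fully methylated nucleotide leaves a gap in the ends and scores near 1. Libraries held 5533150 to 18835537 ends, and the 4 knockdown libraries without a vector were the shallowest (up to 9021579). In control knockdown with empty vector replicate 2, 20.8% of all ends lay at 28S position 15, against 0.241% to 2.72% in the other 18 libraries. That library also gave several of the extreme values below. The change at 28S-4937 and the empty-vector change at 18S-1410 are also given without it. Control means include it, as do the shares of unlisted positions, the scores from 1 flank alone and the list of sites of like level. The 13 sites sat on thin coverage, with a weighted flank mean from 10.3 to 3919 ends (median 290). The median was 1089 for the 107 sites with a named guide, so scores and calls there rest on more ends. The 95% counting interval of a score extended a median of 0.0884 to each side and at most 0.693. These are exact Poisson intervals on the site's count with the flank mean held fixed, and they cover counting error only.

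The sites without an established guide scored far lower than the rest before any knockdown. Over the 4 control knockdown libraries, the median site mean was 0.201 for the 13 and 0.978 for the 107. A mean of at least 0.5 was reached by 5 of 13 (18S-186, 28S-1029, 28S-1731, 28S-2527 and 28S-4937) and by 106 of 107. A mean of at least 0.9 was reached by 0 of 13 and 93 of 107. The score had been set to 0 in 78 of 247 site and library pairs of the 13, against 39 of 2033 pairs of the 107.

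The dip at the site was also less distinct. Within the window of 13 positions centred on each site, 78 of 107 named-guide sites had the fewest ends of the window in at least 10 libraries, and 0 of 13 did. The site was the lowest of its window in 6 libraries for 18S-186, in 5 for 28S-4937 and in 2 each for 18S-1410, 28S-1731 and 28S-2527. For the other 8 it was the lowest in none. With the same formula at every unlisted position (1777 of 18S and 4868 of 28S), 6.30% of 18S positions scored as high as 18S-186 or higher over the control knockdown libraries. The corresponding shares in 28S were 6.70% for 28S-1029, 9.26% for 28S-1731, 9.84% for 28S-2527 and 13.0% for 28S-4937. With flanks of 2 positions they were 2.10%, 11.1%, 2.68% and 6.52%, and 6.87% for 18S-186. With flanks of 6 positions, the share for the other 8 sites ran from 30.6% (18S-1410) to 91.7% (28S-1339), so their scores lay inside the range of ordinary unlisted positions.

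With FBL knockdown, most named-guide sites were called lower and almost none of the 13 was. Averaged over both backgrounds, limma with Benjamini-Hochberg adjustment over all 120 sites called 71.7% of sites lower and 1.67% higher at an adjusted p under 0.05. Called lower were 1 of 13 (18S-1705) and 85 of 107, and called higher were 2 of 13 (18S-1410 and 28S-1339), which made up all sites called higher. The median change in score was -0.0251 over the 13, -0.0966 over the 107 and -0.0853 over all sites. All 4 FBL knockdown libraries lay below all 4 control knockdown libraries at 59.2% of all sites, which were 0 of 13 and 71 of 107. Making the library medians equal added 0.118 to every change, and then 0 of 13 were called lower and 6 higher, against 39 of 107 lower and 51 higher.

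The backgrounds taken singly gave the same split. Without a vector, limma called 59.2% of all sites lower and 1.67% higher, with 1 of 13 and 70 of 107 lower. With empty vector it called 67.5% lower and 0.833% higher, with 0 of 13 and 81 of 107 lower. No fall was possible where both controls scored 0, which was 28S-1339 in both backgrounds, 18S-1441 without a vector and 18S-1705 with empty vector. At an unadjusted p under 0.05, 1 of 13 passed with empty vector, the higher 18S-1410, and 83 of 107. There edgeR and DESeq2 each called 0 of 13, against 84 and 83 of 107. A site with a low score in controls has less room to fall, which applies to 8 of the 13 to differing degrees. Their control means ran from 0 (28S-1339) to 0.369 (18S-1410). The other 5, with control means from 0.5 to under 0.9, were therefore set beside the 13 named-guide sites in the same range, a list drawn after the values were seen. That list was matched on score level and not on coverage. Called lower over both backgrounds were 0 of 5 and 10 of 13, with median changes of -0.0305 and -0.338. With wild-type FBL, 0 of 5 and 6 of 13 were called higher than with empty vector.

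18S-186, predicted for ZL50, had the second highest control mean of the 13. It scored 0.874 and 0.754 in control knockdown and 0.845 and 0.607 in FBL knockdown. With empty vector it scored 0.644 and 0.819 in control and 0.717 and 0.822 in FBL knockdown. The groups overlapped in both backgrounds, and replicates of 1 group differed by more than the groups did. The limma change over both backgrounds was -0.0251 with a 95% interval from -0.162 to 0.112. The 5 SNORD127 libraries ran from 0.727 to 0.873 (median 0.821). Computed from the upstream or the downstream flank alone, the control score was 0.708 or 0.812. The upstream value rests on the positions 6 and 5 nucleotides before the site, at a median of 2.35 and 1.70 times the mean of the window. The 4 positions nearest upstream were at 0.178 to 0.368 times, against 0.193 times at the site.

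28S-1029, with no known guide, had the highest control mean and the smallest counts. It scored 0.754 and 0.838 in control knockdown and 0.570 and 0.710 in FBL knockdown. Of the 5 high sites it alone had both FBL knockdown libraries below both controls without a vector. The counts at the site in those libraries were 23, 3, 8 and 3. The 95% counting intervals were 0.631 to 0.844 and 0.527 to 0.967 in control and 0.154 to 0.815 and 0.152 to 0.940 in FBL knockdown, and they overlapped. With empty vector the order did not hold, with 0.912 and 0.758 in control and 0.663 and 0.890 in FBL knockdown. Over both backgrounds the change was -0.107 (95% interval -0.240 to 0.0252, limma adjusted p = 0.127). Without replicate 2 of FBL knockdown with empty vector it was -0.164 and was called lower (limma adjusted p = 0.0215). The score rested on 1 side of the site: the downstream flank alone gave 0.903 in controls and the upstream flank alone gave a negative value. Ends at the 6 upstream positions were at a median of 0.0115 to 0.172 times the mean of the window, the site itself at 0.179 times and the downstream positions at 1.01 to 3.19 times.

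28S-1731 is predicted for SNORA52, an H/ACA RNA. It scored 0.798 and 0.764 in control knockdown and 0.765 and 0.673 in FBL knockdown. In cells with empty vector the scores were 0.688 and 0.745 in control and 0.705 and 0.729 in FBL knockdown. The pairs touched without a vector and overlapped with one, and the change over both backgrounds was -0.0305 (95% interval -0.0846 to 0.0235). With wild-type FBL, FBLTri and FBLQua it scored 0.732 and 0.679, 0.661 and 0.663, and 0.699 and 0.688. The FBLTri pair lay below the empty-vector pair, with a limma adjusted p of 0.267 for that difference, and the 5 SNORD127 libraries ran from 0.678 to 0.765. Without FBL knockdown replicate 1, the knockdown change was -0.0536 and passed (limma adjusted p = 0.0464). Both flanks alone gave a control score above 0.5 (0.772 upstream and 0.720 downstream).

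28S-2527, with no known guide, scored 0.752 and 0.604 in control knockdown and 0.739 and 0.748 in FBL knockdown. In the empty-vector background the scores were 0.824 and 0.751 in control and 0.768 and 0.782 in FBL knockdown. FBL knockdown libraries lay inside the range of the controls in both backgrounds, and the change was 0.0268 (95% interval -0.0453 to 0.0989). Without control knockdown replicate 1 the change was 0.0637 and was called higher (limma adjusted p = 0.0341). The 5 SNORD127 libraries were within 0.791 to 0.805. The flank around this site is uneven, since the position 2 nucleotides upstream carried 4.47 times the mean of the window. Left out of the formula, the highest flanking position lowered the control score to 0.666.

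28S-4937 has 3 predicted guides, all H/ACA RNAs. It scored 0.625 and 0.575 in control knockdown and 0.579 and 0.653 in FBL knockdown. With empty vector it scored 0.663 and 0.832 in control and 0.621 and 0.656 in FBL knockdown. The value of 0.832 came from the library with 20.8% of its ends at 28S position 15. Over both backgrounds the change was -0.0465 (95% interval -0.128 to 0.0354), and -0.00423 without that library. Leaving out replicate 1 of the same group instead, which made this library the only empty-vector control, gave a called fall of -0.0887 (limma adjusted p = 0.0125). Counts of 55 to 1241 at the site make it one of the better covered of the 13. The SNORD127 control clone and the clones C1 and C34 scored 0.713, 0.717 and 0.748, while C1 with empty vector and C1 with SNORD127 scored 0.628 and 0.616. The 3 libraries of clones without a vector were thus above both libraries of C1 with one, a difference that was not tested.

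18S-1410, with no known guide, was the only site of middle level. It scored 0.505 and 0.449 in control knockdown and 0.582 and 0.534 in FBL knockdown. In cells with empty vector the scores were 0.288 and 0.233 in control and 0.325 and 0.396 in FBL knockdown. FBL knockdown was the higher pair in both backgrounds, and the limma change over both was 0.0905 ± 0.0273 (SE, adjusted p = 0.0146). Singly it was called with empty vector (0.10, limma adjusted p = 0.0452) and not without a vector (0.0809, limma adjusted p = 0.107). The call with empty vector was lost in 8 of 14 alternatives, among them without control replicate 2 (0.0725, limma adjusted p = 0.207). With wild-type FBL, FBLTri and FBLQua it scored 0.417 and 0.427, 0.484 and 0.470, and 0.332 and 0.415. The direction is opposite to that of a site losing methylation with FBL. The position directly downstream scored a median of 0.663 over the 19 libraries, higher than the site. The call over both backgrounds was lost with flanks of 2 positions, in edgeR and in DESeq2 on the counts, and without replicate 2 of control knockdown or of FBL knockdown with empty vector.

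3 of the sites with SNORD or SCARNA predictions lie within 2 nucleotides of an established site, whose position is then part of the flank in their score. 18S-1441, predicted for SCARNA1, adjoins 18S-1442, a SNORD61 target. 18S-1441 itself scored 0 in 18 of 19 libraries and 0.518 in control knockdown with empty vector replicate 2, again the library with many ends at 28S position 15. Before being set to 0, its score was -0.486 and -0.718 in control knockdown and -0.590 and -0.409 in FBL knockdown. The neighbour 18S-1442 had a mean of 0.970 in the 4 control and 0.792 in the 4 FBL knockdown libraries. 18S-1447, the SNORD127 target 6 nucleotides away, had means of 0.645 and 0.134 (change -0.510, limma adjusted p = 9.43e-06). The number of ends at 18S-1441 was thus above its flank mean in every library but 1.

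18S-1680 and its neighbour 18S-1678 are both assigned to SNORD82, as a prediction for the former. 18S-1680 scored 0.037 and 0.079 in control knockdown and 0.299 and 0.225 in FBL knockdown, and was called higher without a vector by 0.204 (limma adjusted p = 0.0429), a call lost in 11 of 15 alternatives. In the empty-vector background the scores were 0.063 and 0.248 in control and 0.129 and 0.025 in FBL knockdown, and the groups overlapped. 18S-1678 changed by -0.0491 over both backgrounds (limma adjusted p = 0.00145), from a mean of 0.979 in the 4 control to 0.930 in the 4 FBL knockdown libraries. With listed neighbours left out of the flanks, the change at 18S-1680 was 0.179 and the limma adjusted p was 0.0519. The score of 18S-1680 otherwise ran from 0 to 0.209 in the 5 SNORD127 libraries.

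18S-1705 and its neighbour 18S-1703 are both assigned to SNORD43, again as a prediction for the former. 18S-1705 scored 0.162 and 0.377 in control knockdown and 0 in both FBL knockdown libraries, and was called lower without a vector (-0.269, limma adjusted p = 0.00183). That call was lost in 4 of 14 alternatives, which were the compared groups alone, flanks of 2 positions, edgeR and DESeq2. The fit shares the spread of a site over all 7 knockdown groups. At 18S-1705 the SD was 0 in every one of these but control knockdown without a vector (0.152). The SE is therefore smaller than that pair alone would give, also in the other limma calls of this site. It scored 0 in every other library except the control clone (0.026), including both controls with empty vector. The counting intervals in control knockdown ran from -0.0314 to 0.327 and from -0.0275 to 0.651, and replicate 2 had 15 ends over a flank mean of 24.1. They overlapped those of FBL knockdown, which ran from -0.563 to 0.252 and from -1.05 to 0.331. Over both backgrounds the change was -0.135 (limma adjusted p = 0.00989), and this call was lost with scores not set to 0, with flanks of 2 positions, in edgeR, in DESeq2 and with medians made equal. The limma change differed between backgrounds by 0.269 (adjusted p = 0.0263, lost in 10 of 18 alternatives), a call that 30.0% of all sites also had in either direction and no other of the 13. The neighbour 18S-1703 changed by -0.00503 (limma adjusted p = 0.470), from a mean of 0.985 in the 4 control to 0.980 in the 4 FBL knockdown libraries.

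18S-1606 carries a prediction for SNORD73A or SNORD73B, box C/D guides. SNORD73A is also the guide named for 28S-1747, a site singled out after its values were seen. 28S-1747 fell by 0.246 with FBL knockdown over both backgrounds (limma adjusted p = 8.88e-08), from 0.99 to 0.744. 18S-1606 scored 0.064 and 0.391 in control knockdown and 0.259 and 0.444 in FBL knockdown. With empty vector it scored 0 and 0.349 in control and 0.169 and 0.167 in FBL knockdown. Replicates of a group differed by up to 0.349, more than the means of the groups compared, and no comparison called the site. In the 5 SNORD127 libraries it scored 0 to 0.0265.

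The 3 remaining sites, all of unknown guide, were at or near 0 outside a few libraries. 18S-936 scored 0.029 and 0 in control knockdown, 0.037 and 0 in FBL knockdown, and 0.390 in control knockdown with empty vector replicate 2. In the other 14 libraries it scored 0. 28S-1339 scored 0 in all libraries but the FBL knockdown pair without a vector, at 0.196 and 0.055, and was called higher there (0.126, limma adjusted p = 0.0117). The spread shared by the fit came from that pair alone (SD 0.0995) and was 0 in every other group. The SE is therefore smaller than the pair alone would give, here and over both backgrounds. Fitting only the compared groups ended that call, as did leaving out control knockdown replicate 2. Over both backgrounds its change was 0.0629 ± 0.0246 (SE, limma adjusted p = 0.0443), a call lost when the compared groups were fitted alone and without any 1 of 6 of the 8 libraries. Before being set to 0 its score was -0.274 and -0.398 in control knockdown against -1.49 and -1.44 with empty vector, so ends at this position exceeded the flank mean, and the change over both backgrounds was 0.399 (limma adjusted p = 0.000704).

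28S-2739 differed between knockdown cells with and without a vector. It scored 0.310 and 0.393 in control knockdown and 0.377 and 0.568 in FBL knockdown without a vector. In cells with empty vector the scores were 0 and 0.060 in control and 0 and 0.105 in FBL knockdown, below all 4 libraries without a vector. The 5 SNORD127 libraries, with and without a vector, ran from 0.009 to 0.091. In a comparison added after the values were seen, the libraries without a vector exceeded those with empty vector by 0.371 ± 0.0502 (SE, limma adjusted p = 0.000546). In that comparison limma called 50.0% of all sites higher, and 3 of 13, the others being 18S-1410 (0.207, limma adjusted p = 0.00048) and 18S-1705 (0.135, limma adjusted p = 0.0141). The vector moved together with the column names (shFBL1 and shFBL2 against shFBL4) and with depth, and these cannot be told apart.

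With wild-type FBL put back, most named-guide sites were called higher and none of the 13 was. Against FBL knockdown with empty vector, limma called 57.5% of all sites higher, which were 69 of 107 and 0 of 13. At an unadjusted p under 0.05 there were 0 of 13 and 73 of 107 in either direction. Also 0 of 13 were called by edgeR and by DESeq2, against 65 and 67 of 107 called higher. Making the library medians equal added -0.0958 to every change, and then 20 of 107 were called higher and 49 lower, with 0 of 13 higher and 1 lower. The largest change among the 13 was 0.0618 at 18S-1410 (95% interval -0.0264 to 0.150), with a limma adjusted p of 0.206, the smallest of the 13. For the 5 high sites the change ran from -0.0213 (28S-4937, 95% interval -0.137 to 0.0944) to 0.0349 (28S-1029, 95% interval -0.153 to 0.222). Named-guide sites of like level rose by a median of 0.155. That rise lies within the intervals of 28S-1029 and 18S-186 (up to 0.216), so it could not be told from no change there. It lies above the intervals of 28S-1731, 28S-2527 and 28S-4937 (up to 0.0647, 0.0968 and 0.0944). The test is empty for 18S-936, 18S-1441, 18S-1705 and 28S-1339, which scored 0 in all 8 libraries of FBL knockdown with empty vector, wild-type FBL or a mutant. With scores not set to 0, 18S-1705 was lower with wild-type FBL by -0.222 (limma adjusted p = 0.0460). The FBL knockdown libraries with empty vector serve both in this comparison and in the knockdown comparison, which are therefore not independent.

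Neither mutant was called different from wild-type FBL at any of the 13 sites on the deposited scores. On these scores the test was again empty for 18S-936, 18S-1441, 18S-1705 and 28S-1339, which scored 0 in all libraries compared. FBLTri was lower than wild-type FBL at 62.5% of all sites by limma, which were 75 of 107 and 0 of 13. FBLQua was lower at 59.2%, which were 71 of 107 and 0 of 13. The smallest limma adjusted p among the 13 was 0.257 for FBLTri and 0.310 for FBLQua. In either, 0 of 13 had an unadjusted p under 0.05, against 78 and 79 of 107. By edgeR and by DESeq2, 0 of 13 were called in either. Of the 107, edgeR called 73 for FBLTri and 72 for FBLQua, and DESeq2 called 75 and 72. Making the library medians equal added 0.0969 for FBLTri and 0.1015 for FBLQua, after which 24 and 23 of 107 were called lower and 41 and 43 higher, with 0 of 13 lower in both. Of the 13, 1 was then called higher for FBLTri, 18S-1410 (0.151, limma adjusted p = 0.00894), and 0 for FBLQua. Both comparisons use the same wild-type libraries. Against empty vector, FBLTri was called at 36.7% of all sites in either direction and at 1 of 13, 18S-1410, by 0.116 (limma adjusted p = 0.0452), a call lost in 11 of 14 alternatives. 18S-1705 was instead called lower with scores not set to 0 (-0.311, limma adjusted p = 0.0182) and in DESeq2 (adjusted p = 0.0351). FBLQua was called at 19.2% of all sites and at 0 of 13 (smallest limma adjusted p = 0.579), also 0 of 13 at an unadjusted p under 0.05, by edgeR and by DESeq2. Among the 107 these were 38 at an unadjusted p under 0.05, 4 by edgeR and 14 by DESeq2.

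By limma on the deposited scores, none of the 13 was called lower with FBL knockdown in both backgrounds, higher with wild-type FBL, or lower with a mutant than with wild-type FBL. A call lower in both backgrounds was not possible for 28S-1339, 18S-1441 and 18S-1705. Both controls scored 0 at 28S-1339 in both backgrounds, at 18S-1441 without a vector and at 18S-1705 with empty vector. The wild-type and mutant comparisons were empty for 18S-936, 18S-1441, 18S-1705 and 28S-1339, which scored 0 in all libraries compared. For the 5 high sites the intervals over both backgrounds reached down to -0.240 at most, short of the median fall of 0.338 at named-guide sites of like level, where changes ran from -0.699 to -0.0298. Smaller falls lie within the intervals. Without a vector the interval of 28S-1029 reached -0.344, past the like-level median of -0.324 in that background. With wild-type FBL, the like-level median rise of 0.155 lay within the intervals of 18S-186 and 28S-1029. Of the 8 others, 7 had a control mean of at most 0.201 over both backgrounds, which leaves less room to fall. Among these, 28S-2739 had a control mean of 0.351 without a vector and changed there by 0.121 (95% interval -0.0413 to 0.283). 18S-1410 (0.369 over both backgrounds) was higher with FBL knockdown.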

How the data were processed

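RiboMethSeq was measured in 19 Kasumi-1 libraries. Per the labels' protocols, alkali at 95 °C cut 100 ng of total RNA over 12 min into pieces near 30 nucleotides long. Cutadapt and Bowtie2 were used, per the submitters' processing notes, while the sources used here name no version, reference or counted end. Whole-number counts of ends at 7000 rRNA positions, not normalized, were deposited by the authors, with score C as a fraction from 0 to 1 at 120 sites. Recomputed from the counts, read 1 position after the site with weights falling from 1 to 0.5 over 6 flanking positions, the score matched in 2280 of 2280 pairs within 1e-09. A score is a ratio within a library, so depth mainly sets its precision, while uneven cleavage and neighbouring methylated sites in the flank change its value.

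Groups were taken from the titles. Score C of all 120 sites was fitted with limma 3.58.1 (R 4.3.3, moderated, 1 mean per group over the 7 knockdown groups), with Benjamini-Hochberg adjustment over all sites and a threshold of 0.05. The fit was also run on simulated data, with changes planted only at sites scoring above 0.5. That run does not show how well changes at low scores are found. The SNORD127 libraries, with 1 library of each clone and condition, were described and entered no test. Alternatives were the compared groups alone, a logit scale, scores not set to 0, flanks of 2 positions, flanks without other listed sites, edgeR 4.0.16 and DESeq2 1.42.0 on the site and flank counts, omission of sites whose flanking counts were in the lowest 10%, scaling of libraries to equal medians, a replicate block and omission of each library. All 13 sites were named, with listed sites within 6 nucleotides of them. 28S-1747, the comparison of libraries without and with a vector, the single-flank scores and the list of like level were added after the values were seen. The sites and lists were chosen with earlier results of these data known. RefSeq symbols (GRCh38.p14) were found for 9 of 10 predicted guides. Python 3.11.15, numpy 2.4.6, scipy 1.17.1 and pandas 2.3.3 were used otherwise.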

Additional observations from a re-analysis of the deposited data

Results flagged for a closer look

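18S-936 scored 0.390 in control knockdown with empty vector replicate 2, far from the other 3 control knockdown libraries, of which the highest was 0.0291. 18S-1441 scored 0.518 in the same library and 0 in the other 3. In that library 20.8% of all ends lay at 28S position 15, and the part of this in both scores was not tested. 18S-936 also scored 0.0369 in FBL knockdown replicate 1 and 0 in the other 3 FBL knockdown libraries, a small value picked out because the others are all 0. A single library that far from the rest was looked for in 26 sets of 4 libraries and found in 3. The rule's usual chance rate of about 1 in 20 does not apply to scores set to 0. Where the other 3 libraries score 0, any positive value is picked out, and a set with all scores at 0 cannot be. Each set of 4 pools the libraries with and without a vector.

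The FBL knockdown effect at 18S-1705 differed between backgrounds by 0.269 (limma adjusted p = 0.0263). Both controls without a vector scored above 0 and both with empty vector scored 0. The spread shared by the fit came from control knockdown without a vector alone, since every other knockdown group scored 0 in both libraries.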

How the results depend on the processing

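The number of the 13 sites called by limma in either direction was 3 for FBL knockdown over both backgrounds, 3 without a vector, 1 with empty vector, 1 for the difference between backgrounds, 1 for FBLTri against empty vector and 3 for no vector against empty vector. It was 0 for wild-type FBL against empty vector, for FBLTri and for FBLQua against wild-type FBL, and for FBLQua against empty vector. With the compared groups alone these were 1 without a vector and 0 with empty vector, for the difference and for FBLTri against empty vector. On a logit scale they were 2 for the difference and 0 for FBLTri against empty vector. With scores not set to 0, 1 site was called for wild-type FBL and 5 for no vector. The 1 site for FBLTri against empty vector was then 18S-1705, called lower, in place of 18S-1410, called higher. Flanks of 2 positions gave 1 over both backgrounds, 1 without a vector, 0 with empty vector, 0 for FBLTri against empty vector and 5 for no vector. On counts, edgeR gave 1, 1, 0, 0, 0 and 5 in the order of the first sentence. DESeq2 gave 1, 1, 0, 0, 1 and 5, where the call for FBLTri against empty vector was also 18S-1705, lower. Leaving out the sites with the lowest 10% of flanking counts removed 12 sites, 6 of them among the 13, and gave 0, 1, 0, 0, 0 and 1. Of the named-guide sites left, 82, 68, 79, 36, 43 and 59 were called. The removed sites included 18S-1410, 18S-1705 and 28S-1339, so their calls could not recur, and the lower counts say nothing about those calls. With library medians made equal, which FBL knockdown itself lowers, 6, 6 and 5 sites were called for the knockdown over both backgrounds, without and with a vector, 1 for wild-type FBL, 1 for FBLTri against wild-type FBL and 0 for FBLTri against empty vector.

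Of the values called in the main limma fit or in the alternative, 3 turned sign. 18S-1410, called in the main fit, did so in FBL knockdown with empty vector with flanks of 2 positions (-0.0478, limma adjusted p = 0.625). The other 2 were not called in the main fit and were called higher with medians made equal. They were 28S-1731 in FBL knockdown over both backgrounds (0.0876, limma adjusted p = 0.00931) and 28S-2527 in FBL knockdown with empty vector (0.126, limma adjusted p = 0.0220). Equal medians add 0.118 and 0.138 to every site's change in these comparisons, which accounts for the latter 2 turns. For 18S-1410 the cause was not tested.

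Each library was also left out in turn, which left 1 library in its group, so numbers of called sites are not compared for these fits. Where 1 library of a group was left, it was assumed to vary like the other groups. Without control knockdown with empty vector replicate 1, the called sites with empty vector included 18S-936 (-0.390), 18S-1441 (-0.518) and 28S-4937 (-0.194), all resting on replicate 2. Without FBL knockdown with empty vector replicate 2, 28S-1029 was called over both backgrounds (-0.164).

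With a replicate block, 0 of the 13 sites were called with empty vector and for FBLTri against empty vector, against 83 and 37 of 107. The labels do not say that numbers pair libraries, and deviations of same-numbered libraries correlated at -0.226 to 0.694 over 21 pairs of groups, above 0.1 in 12. Among the 107 named-guide sites, FBLQua against empty vector was called at 23 by limma, 0 in the compared groups alone, 7 on a logit scale, 4 in edgeR and 14 in DESeq2. The thin counts at 28S-1029 and 18S-1705 limit what could be detected there.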
